A study of Mus musculus with 6 samples.

Results

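The immediate early genes outside the AP-1 family were followed in mouse embryonic fibroblasts labelled Fbxw7 KO and WT. The 10 genes were taken by name from the rows of the deposited tables: Egr1, Egr2, Egr3, Nr4a1, Atf3, Srf, Ier2, Ier3, Ier5 and Dusp1, that is 10 of 53323 loci. Each was the only gene named on its locus, although that of Srf was a merged region much longer than the gene. All 10 were among the 16787 that passed the filter on low counts and were tested. Egr1, Ier2 and Ier3 rose in KO cells, by 3.29-fold, 2.62-fold and 2.18-fold, and Dusp1 fell to 0.595 of its WT level; the other 6 did not pass the test.

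Fibroblasts grown out of embryos were sequenced as total RNA in 6 libraries, 3 of genotype Fbxw7 KO and 3 of genotype WT. Fbxw7 encodes the F-box protein through which an SCF ubiquitin ligase picks phosphorylated substrates for breakdown. Both genotypes grew in DMEM with 15% fetal bovine serum and 1% non-essential amino acids. The labels gave no embryo, age, sex, strain, clone, means of deletion, or step of serum withdrawal or stimulation, nor whether the replicates were separate cultures, and p-values therefore measure only how far these samples spread, which can be technical.

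Immediate early genes are those that a cell switches on within minutes of a growth factor, serum, stress or handling, without making new protein first. ERK and its sister MAP kinases act on serum response factor (SRF) and its partners, which sit on CArG boxes in the promoters of Egr and other genes, while cyclic AMP signals act through CREB on the element TGACGTCA. The transcription factors made in this first wave (EGR proteins, NR4A1, ATF3) change the expression of later genes, and DUSP1, a phosphatase made in the same wave, strips phosphate from the MAP kinases again.

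The promoter stretches shown here are those of SRF itself, of 3 genes with differing elements (Egr2, Dusp1, Nr4a1) and of Ier3, a gene that rose and whose window held none of these elements. They come from the RefSeq promoter table on GRCm38.p6 and run 5′ to 3′; of the 250 bases before a start site only the longest run outside every annotated exon is printed. Capitals mark CArG boxes, TGACGTCA and its short form TGACG, read on both strands, so that CGTCA is the short form on the opposite strand.
Srf, chr17:46556176-46556412, minus strand: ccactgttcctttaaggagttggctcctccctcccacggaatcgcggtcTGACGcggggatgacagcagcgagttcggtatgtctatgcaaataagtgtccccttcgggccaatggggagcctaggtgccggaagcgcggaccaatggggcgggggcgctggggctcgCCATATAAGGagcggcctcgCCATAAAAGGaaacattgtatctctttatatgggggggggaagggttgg
Egr2, chr10:67537619-67537868, plus strand: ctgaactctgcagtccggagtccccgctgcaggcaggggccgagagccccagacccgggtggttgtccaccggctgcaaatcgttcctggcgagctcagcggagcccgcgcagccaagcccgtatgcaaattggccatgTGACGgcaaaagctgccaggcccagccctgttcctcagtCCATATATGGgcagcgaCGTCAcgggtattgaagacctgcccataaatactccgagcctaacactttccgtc
Dusp1, chr17:26508520-26508722, minus strand: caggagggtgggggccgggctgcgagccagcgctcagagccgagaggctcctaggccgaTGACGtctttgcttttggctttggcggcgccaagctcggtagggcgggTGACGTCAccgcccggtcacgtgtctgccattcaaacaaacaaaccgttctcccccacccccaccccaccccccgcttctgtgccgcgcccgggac
Nr4a1, chr15:101266596-101266845, plus strand: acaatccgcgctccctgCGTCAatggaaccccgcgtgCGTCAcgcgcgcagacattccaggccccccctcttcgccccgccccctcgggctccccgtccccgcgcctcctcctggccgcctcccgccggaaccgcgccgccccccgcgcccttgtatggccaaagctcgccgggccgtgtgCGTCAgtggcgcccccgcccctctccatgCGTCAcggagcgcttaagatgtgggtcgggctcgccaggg
Ier3, chr17:35821463-35821683, plus strand: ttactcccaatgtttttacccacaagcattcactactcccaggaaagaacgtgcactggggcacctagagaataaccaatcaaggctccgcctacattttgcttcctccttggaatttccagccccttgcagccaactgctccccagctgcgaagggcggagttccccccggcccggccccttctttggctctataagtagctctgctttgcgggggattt

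The Srf window held 2 CArG boxes, with 72 and 52 bases between box and start, 1 TGACG and the EGR element GCGGGGGCG. Of the 5 start sites listed for Egr2, 4 had a CArG box in their window, among them the one printed, which also held 2 copies of TGACG. The Egr2 windows starting at 67537619, 67537620 and 67537680 overlap and hold the same box, so these are not separate boxes. The Dusp1 window held TGACGTCA, with 135 bases between it and the start. It also held 3 copies of TGACG, of which 2 lie inside that element, on its opposite strands. In Nr4a1, TGACG occurred 4 times, and the EGR element was present as in Srf. The windows of Ier3 and Ier5 held no CArG box and no TGACG, and that of Atf3 held TGACG with 2 bases between it and the start. Of all 32851 windows of 250 bases, 1.47% held a CArG box, 1.55% TGACGTCA, 17.8% TGACG and 2.57% GCGGGGGCG. Of the 10 genes 7 had a window in the table, with Egr1, Egr3 and Ier2 named only. A match of letters is a description, and binding was not measured.

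Transcripts of Fbxw7 averaged 26.4 ± 1.97 CPM in KO libraries and 29.3 ± 0.869 CPM in WT libraries (SD, n = 3 each; CPM are fragments scaled to a common library total by TMM), with a log2 fold change of -0.16 (95% interval -0.39 to 0.07) and an edgeR adjusted p of 0.332. A sum over the whole gene does not check a deletion of unknown extent, so the libraries are called KO and WT as labelled. Deposited totals were 55720129 to 64198455 fragments per library. Replicates 1 and 2 of a genotype resembled each other more than the third. The median over genes of the squared difference of their counts was 6.56 times (KO) and 7.42 times (WT) the sampling noise. For pairs with a replicate 3 this median was 26.7 to 42.6 times, with 13331 to 13931 genes per pair. Fibroblast markers were abundant, summing over the 11 of 13 with a locus of their own to 29603 to 36021 CPM in KO and 29775 to 39045 CPM in WT libraries, and 2 of the 11 (Lum, Dcn) rose while 2 (Vim, Prrx1) fell. Of 6 endothelial markers both tested ones (Kdr, Tek) fell, and the sum over all 6 was 0.62 to 1.42 CPM in KO against 6.46 to 9.27 CPM in WT, with Tie1 at 0 in all 6 libraries. Leukocyte markers summed to 0.63 to 1.39 CPM in KO and 1.54 to 2.26 CPM in WT, with Cd68 lower in KO and Adgre1 at 0. Neural markers summed to 19.3 to 24.7 CPM in KO and 21.8 to 28.0 CPM in WT, where Nes was higher and Map2 lower in KO and Sox2 was at 0. Epithelial and skeletal muscle markers summed to 0.446 CPM or less in every library, with Krt8, Krt14, Myod1 and Myf5 at 0, and pluripotency markers to 0.808 CPM or less, with Zfp42 and Lin28a at 0. Xist, in a locus shared with Gm27733 and Gm27927, averaged 911 CPM in KO and 1.47 CPM in WT, and Y-linked Ddx3y averaged 30.4 CPM in KO and 95.9 CPM in WT. The part of these markers in the results was not tested, and the sex transcripts cannot be told apart from genotype.

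EGR proteins are zinc-finger transcription factors, and Egr1 is a classical serum-induced gene of fibroblasts. Egr1 (chromosome 18, 34859823 to 34864984, plus strand, protein coding, mm10) had 104, 165 and 169 CPM in KO replicates 1, 2 and 3, against 23.6, 44.3 and 65.3 CPM in WT replicates 1, 2 and 3. Every KO library lay above every WT library, although WT replicates 1 and 3 were themselves 2.76-fold apart. Its log2 fold change was 1.72 ± 0.35 (SE; 95% interval 0.90 to 2.54) with an edgeR Benjamini-Hochberg adjusted p of 0.0168 over all 16787 genes. Egr1 was no longer called without KO replicate 2 (adjusted p = 0.0676), KO replicate 3 (0.0644) or WT replicate 2 (0.0693) in edgeR, or without a count filter (0.116). The call was also lost in edgeR without replicate 3 of either genotype (0.119) or with replicates 1 and 2 summed (0.0841). With limma on log2(FPKM + 1) without a filter it was lost too (0.068). Over all alternatives the log2 fold change of Egr1 was 1.41 to 2.1. In bulk RNA, more cells that express a gene and more RNA of it per cell cannot be told apart.

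**Figure D1:**
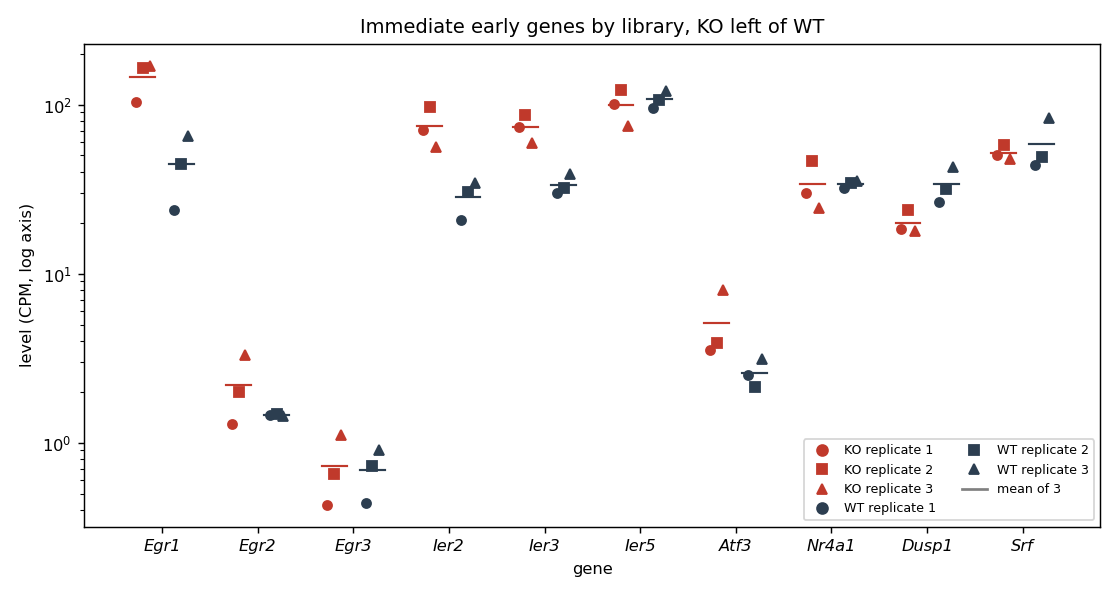
Level of each of the 10 genes in every library, in CPM on a log axis; KO libraries (red) stand left of WT libraries (dark), symbols give the replicate number and lines the mean of 3. For Egr1, Ier2 and Ier3 all KO points lie above all WT points, for Dusp1 all lie below, and Egr2 and Egr3 lie at 3.31 CPM or less in every library.

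Egr2 and Egr3, the relatives of Egr1 best known from nerve myelination and muscle spindles, were nearly silent. Egr2 (chromosome 10, 67535475 to 67542188, plus strand) had 1.29, 1.98 and 3.31 CPM in KO and 1.46, 1.48 and 1.44 CPM in WT. KO replicate 1 lay below the WT libraries and KO replicates 2 and 3 above them. Its log2 fold change was 0.59 ± 0.33 (SE, 95% interval -0.19 to 1.36, edgeR adjusted p = 0.275). In the deposited FPKM the genotype means were closer, at 0.777 ± 0.267 FPKM in KO and 0.723 ± 0.263 FPKM in WT (SD, n = 3 each). WT replicates 1, 2 and 3, nearly equal in CPM, had 0.664, 1.01 and 0.494 FPKM. CPM and FPKM of Egr2 thus differed by more than a fixed length, and the cause was not tested. Egr3 (chromosome 14, 70077203 to 70082614, plus strand) had 0.429, 0.656 and 1.11 CPM in KO and 0.437, 0.730 and 0.899 CPM in WT, that is 24.6 to 64.7 fragments in a KO library and 25.6 to 55.3 in a WT library. These values overlapped fully, with a log2 fold change of 0.09 ± 0.42 (SE; edgeR adjusted p = 0.914). Its 95% interval ran over 0.54-fold to 2.08-fold, and a difference within that range was not excluded. In both genes KO replicate 3 was the highest KO library and KO replicate 1 the lowest, as in Egr1.

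NR4A1 is an orphan nuclear receptor induced by serum and by cyclic AMP. Nr4a1 (chromosome 15, 101254269 to 101274795, plus strand) had 30.1, 46.7 and 24.4 CPM in KO and 32.1, 34.5 and 35.1 CPM in WT. The KO libraries fell on both sides of a narrow WT range, and the log2 fold change was -0.01 ± 0.22 (SE; edgeR adjusted p = 0.985), with a 95% interval of 0.70-fold to 1.41-fold. Its level per length averaged 16.0 ± 5.43 FPKM in KO and 14.5 ± 1.16 FPKM in WT (SD, n = 3 each).

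ATF3, a bZIP factor that stress induces and that can repress transcription, was low in both genotypes. Atf3 (chromosome 1, 191170296 to 191218039, minus strand) had 3.53, 3.87 and 7.99 CPM in KO and 2.52, 2.14 and 3.14 CPM in WT. All KO libraries lay above all WT libraries, with KO replicate 3 at more than the level of both other KO libraries together. With a log2 fold change of 0.98 ± 0.34 (SE; 95% interval 0.20 to 1.76), Atf3 had an unadjusted p of 0.020 and did not pass after adjustment (edgeR adjusted p = 0.0891). It passed with DESeq2 (adjusted p = 0.0266) and in edgeR without replicate 3 of either genotype (adjusted p = 0.00538). Without KO replicate 3 the log2 fold change was 0.50.

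SRF is the DNA-binding factor through which serum reaches many immediate early promoters, and its own gene is one of its targets. Srf (chromosome 17, 46548329 to 46556175, minus strand; counted in a merged region of 46442448 to 46831413) had 50.1, 57.6 and 47.4 CPM in KO and 43.7, 48.9 and 82.9 CPM in WT. WT replicate 3 stood above all other libraries, and the remaining WT libraries lay within or below the KO range. With a log2 fold change of -0.18 ± 0.23 (SE; 95% interval -0.71 to 0.36) Srf did not pass (edgeR adjusted p = 0.646), and without WT replicate 3 the sign turned (0.16).

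The IER proteins share a name and not a protein family: IER2 and IER5 are related nuclear regulators, and IER5 is known to activate the heat shock factor HSF1, whereas IER3 is a small protein tied to cell survival and prolonged ERK signalling. Ier2 (chromosome 8, 84661331 to 84662852, minus strand, 1 exon) had 70.5, 97.4 and 56.2 CPM in KO and 20.9, 30.3 and 34.4 CPM in WT. Its lowest KO library stood well above its highest WT library. The log2 fold change was 1.39 ± 0.24 (SE, 95% interval 0.83 to 1.95, edgeR adjusted p = 0.00898), and Ier2 was called without any 1 of the 6 libraries. Its call was lost in edgeR with replicates 1 and 2 summed (adjusted p = 0.0707). With limma on log2(FPKM + 1) without a filter it was lost as well (adjusted p = 0.0566).

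Ier3 (chromosome 17, 35821684 to 35822923, plus strand) had 73.2, 87.2 and 59.6 CPM in KO and 29.8, 32.2 and 39.0 CPM in WT. The order of the libraries was that of Ier2, with KO replicate 2 and WT replicate 3 highest, and the groups did not overlap. Of the 10 genes Ier3 had the smallest adjusted p, at a log2 fold change of 1.12 ± 0.16 (SE, 95% interval 0.75 to 1.5, edgeR adjusted p = 0.00426). The call of Ier3 was lost in edgeR with replicates 1 and 2 summed (adjusted p = 0.0697). Ier5 (chromosome 1, 155096361 to 155099636, minus strand, 1 exon) had 101, 122 and 75.1 CPM in KO and 95.2, 107 and 121 CPM in WT. Here the genotypes overlapped, and the log2 fold change of -0.11 ± 0.18 (SE; edgeR adjusted p = 0.713) had a 95% interval of 0.69-fold to 1.23-fold.

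DUSP1 is the nuclear phosphatase that inactivates p38, JNK and ERK. Dusp1 (chromosome 17, 26505590 to 26562128, minus strand in the annotation; the deposited locus ends at 26508519) had 18.5, 23.8 and 17.8 CPM in KO and 26.4, 31.7 and 43.0 CPM in WT. Every KO library lay below every WT library, and the gap between KO replicate 2 and WT replicate 1 was small. Its log2 fold change was -0.75 ± 0.20 (SE; 95% interval -1.21 to -0.29; edgeR adjusted p = 0.0392). An annotated exon of Dusp1 overlaps Ergic1 on the other strand by 11 bases, outside the deposited locus. The call was lost without KO replicate 1 (adjusted p = 0.141), KO replicate 2 (0.0525), KO replicate 3 (0.094), WT replicate 2 (0.095) or WT replicate 3 (0.0593) in edgeR, while the log2 fold change stayed between -0.90 and -0.46 in all 18 alternatives.

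**Figure D2:**
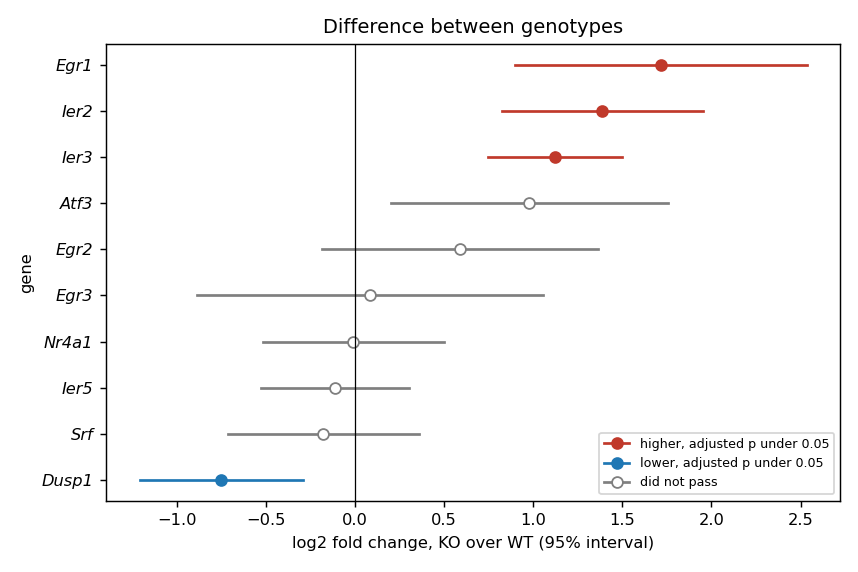
Log2 fold change of KO over WT for each of the 10 genes (edgeR), with its 95% interval as a bar; filled points passed an adjusted p of 0.05. Egr1, Ier2 and Ier3 lie at 1.12 or more, Dusp1 at -0.75, and the intervals of Egr2, Egr3, Nr4a1, Ier5 and Srf include 0.

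Of the 10 genes 3 were called higher, where 8.03% of all genes tested were, and 1 was called lower, where 8.08% were. Groups did not overlap for 4 genes that were higher in KO (Egr1, Ier2, Ier3, Atf3), against 19.2% of all genes, and for 1 that was lower (Dusp1), against 18.4%. The median log2 fold change was 0.34 over the 10 genes and 0.01 over all genes tested. Without replicate 3 of either genotype 3 of the 10 were higher (Ier2, Ier3, Atf3) and 1 lower (Dusp1), while 20.7% of all genes were then higher and 20.6% lower.

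Expressed per length, the order of the 10 genes differed between genotypes. In KO cells Ier3 led with 73.9 ± 15.4 FPKM (fragments scaled for transcript length), followed by Ier2 with 52.2 ± 15.5, Egr1 with 44.5 ± 11.2 and Ier5 with 29.3 ± 7.29 FPKM (SD, n = 3 each). In WT cells Ier3 led with 35.3 ± 5.55 FPKM, followed by Ier5 with 32.6 ± 4.41, Ier2 with 20.7 ± 5.32 and Dusp1 with 18.2 ± 4.61 FPKM. Egr1 was the third gene in KO and the sixth in WT, at 14.0 ± 6.68 FPKM, and Dusp1 was the seventh in KO, at 10.7 ± 1.65 FPKM. At the low end the order was the same in both genotypes: Atf3 with 3.09 ± 1.72 FPKM in KO and 1.61 ± 0.372 FPKM in WT, then Egr2, then Egr3 with 0.22 ± 0.0699 FPKM in KO and 0.20 ± 0.0568 FPKM in WT. Among the 7 genes above Atf3, the library values of each gene and its neighbour in the order overlapped in KO cells, and in WT cells they overlapped except between Ier5 and Ier2. Each of the 3 lowest genes was separate from its neighbours in both.

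The ratio of 1 gene to another was compared between libraries, a choice made after the values were seen and given with no test; CPM is not scaled to length, so the size of a ratio within 1 library says nothing of which gene is higher. The ratio of Egr1 to Dusp1 in CPM was 5.63, 6.92 and 9.49 in KO libraries 1, 2 and 3, against 0.895, 1.40 and 1.52 in WT libraries 1, 2 and 3. That of Ier2 to Dusp1 was 3.82, 4.09 and 3.15 in KO and 0.791, 0.955 and 0.801 in WT. In both ratios every KO library lay above every WT library. That had to follow, because Egr1 and Ier2 were each higher in every KO library and Dusp1 lower, so the separation is no further observation. The gap was wider than the spread within a genotype. Against Ier5, which did not pass the test, Ier3 stood at 0.722, 0.712 and 0.794 in KO and 0.314, 0.301 and 0.322 in WT. These ratios varied less between replicates than the levels of Ier3, and Ier3 and Ier5 were highest in the same library of each genotype and lowest in the same library. The ratio of Egr1 to Ier3 was less steady, at 1.42, 1.89 and 2.84 in KO and 0.792, 1.38 and 1.68 in WT, and these values overlapped.

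The spread between libraries of a genotype was described over the 10 genes, with no test. The median SD of log2 level over the 10 was 0.37 in KO and 0.20 in WT, against 0.13 in KO and 0.13 in WT over all genes tested. WT replicate 3 was the highest WT library for 9 of the 10, all but Egr2, and WT replicate 1 the lowest for 8. Over all genes tested WT replicate 3 was the highest for 38.1% and WT replicate 1 the lowest for 25.8%. Among KO libraries the genes split: replicate 2 was highest for Ier2, Ier3, Ier5, Nr4a1, Dusp1 and Srf, which were all lowest in replicate 3, and replicate 3 was highest for Egr1, Egr2, Egr3 and Atf3, which were all lowest in replicate 1. Over all genes tested KO replicate 2 was the highest KO library for 32.9% and replicate 3 for 42.5%, and the lowest was replicate 3 for 42.6% and replicate 1 for 24.1%.

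**Figure D3:**
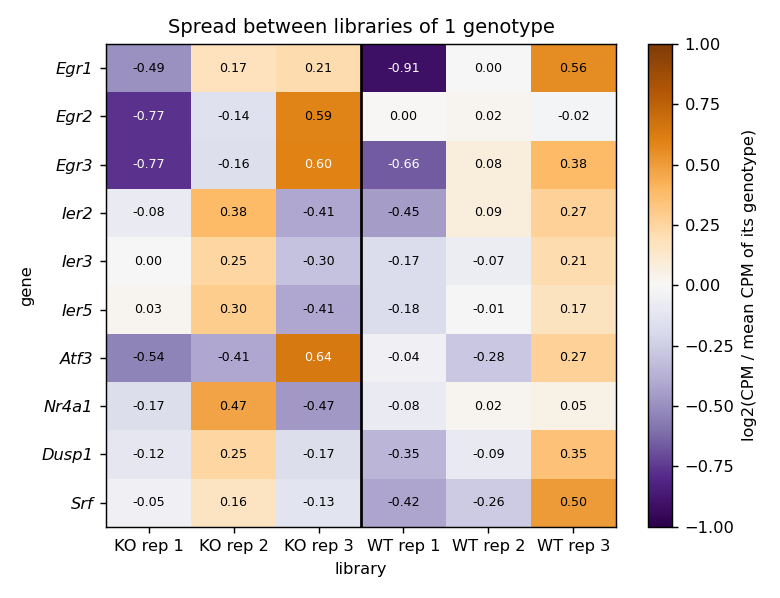
Log2 of each library's CPM over the mean CPM of its genotype, for the 10 genes (rows) in 3 KO libraries (left of the line) and 3 WT libraries (right). KO replicate 3 is above its mean for Egr1, Egr2, Egr3 and Atf3 and below it for the other 6, and WT replicate 3 is above its mean for all but Egr2.

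The genes whose level ran most alike over the 6 libraries were looked up by Pearson r of log2(CPM + 1) among genes with a mean of at least 10 CPM; with 6 libraries of shared depth and genotype, r is a description only. For Ier2 they were Clpb (r = 0.993), the AP-1 gene Junb (0.990) and the locus of B4galt2, Ccdc24 and Gm17114 (0.990). For Egr1 they were Aldh7a1 (0.989), Ogg1 (0.988) and Sh3bp4 (0.981), and for Ier3 Mrps5 (0.996), Dhps (0.994) and Ncstn (0.994). Dusp1 ran most like the locus of Iqcj and Schip1 (0.997), Wsb2 (0.996) and Alas1 (0.991). Ier5 was followed most closely by Szrd1 (0.996) and by another immediate early gene, Csrnp1 (0.994), and Srf by Dazap1 (0.994). A value of r above 0.95 was reached by 189 of 9633 genes for Ier3 and by 32 for Egr1.

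The surrounding genes of the response were read from lists. Under the main settings 8.03% of all genes tested were called higher and 8.08% lower, and the list counts stand against these shares. Of 34 other immediate early genes tested, 5 rose and 1 fell, with a median log2 fold change of 0.05. Pim1, a survival kinase gene, had 59.2, 65.0 and 34.6 CPM in KO and 14.4, 15.9 and 9.14 CPM in WT (log2 fold change 2.01 ± 0.28 SE; edgeR adjusted p = 0.00383). Gadd45a, a growth arrest gene, averaged 81.3 ± 2.99 CPM in KO and 38.2 ± 4.58 CPM in WT (SD, n = 3 each), and its relative Gadd45b averaged 37.8 ± 0.404 CPM in KO and 49.4 ± 4.44 CPM in WT: Gadd45a rose and Gadd45b fell (edgeR adjusted p = 0.000984 and 0.0331). The call of Gadd45b, the 1 lower call of the list, was lost without KO replicate 1, KO replicate 2, WT replicate 1 or WT replicate 2. Ppp1r15a, which directs a phosphatase to the translation factor eIF2α, rose by 0.92 ± 0.13 on the log2 scale (edgeR adjusted p = 0.00351). Btg1 (0.42 ± 0.12) and F3 (0.67 ± 0.19) rose nearer the threshold (edgeR adjusted p = 0.0466 and 0.0493), both chosen for naming after their values were seen. With 1 library left out, Btg1 was never called, and F3 was called only without KO replicate 3. The number higher was 8 without WT replicate 3, where 9.37% of all genes tested were higher, and 3 (Pim1, Gadd45a and Ppp1r15a) without KO replicate 1, KO replicate 2, WT replicate 1 or WT replicate 2, where 3.51% to 4.15% of all genes were. Without replicate 3 of either genotype 17 were higher and 6 lower, where 20.7% and 20.6% of all genes were. Without KO replicate 1, KO replicate 2, WT replicate 1 or WT replicate 2, 3.27% to 4.35% of all genes were lower. Without WT replicate 3 it was 9.10%. Without KO replicate 3, 9.05% of all genes were higher and 10.1% lower. The counts of the other lists under these settings stand against these shares.

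Among AP-1 subunits, partners of the same first wave, 2 of 7 tested rose. Over all genes tested 8.03% were called higher and 8.08% lower. Fos had 8.94, 16.0 and 11.6 CPM in KO and 2.47, 3.52 and 4.64 CPM in WT, and Junb had 139, 189 and 84.0 CPM in KO and 31.5, 50.4 and 61.7 CPM in WT. In both the genotypes were separate, and Junb had the order of libraries of Ier2. Without KO replicate 1, KO replicate 2, WT replicate 1 or WT replicate 2 only Fos of the 7 was called. Without replicate 3 of either genotype 4 were higher (Fos, Fosl1, Fosl2, Jun) and 1 lower (Fosb), and Junb was not called. Of 7 tested partners of EGR and NR4A proteins 1 fell, Nab2, a corepressor that EGR1 induces and that binds EGR proteins: it averaged 91.9 ± 9.66 CPM in KO and 124 ± 7.41 CPM in WT (SD, n = 3 each; log2 fold change -0.43 ± 0.11 SE; edgeR adjusted p = 0.0315). Nab2 lost its call without KO replicate 1, WT replicate 1 or WT replicate 2. Nr4a2 and Nr4a3, the relatives of Nr4a1, did not pass, at log2 fold changes of 0.24 and -1.09.

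The SRF side of the response was read in its cofactors and in cytoskeletal genes. Of 3 SRF cofactor genes tested none passed (0 in edgeR, with 1 at an unadjusted p under 0.05 and 1 called by DESeq2, in both cases Elk3); Elk3, a ternary complex factor, averaged 213 ± 1.76 CPM in KO and 272 ± 29.1 CPM in WT (SD, n = 3 each; adjusted p = 0.0563), and the actin-sensing coactivator Mkl1 averaged 60.1 ± 4.02 CPM in KO and 76.6 ± 17.0 CPM in WT (adjusted p = 0.169). Of 20 cytoskeletal SRF targets tested 6 fell, with a median log2 fold change of -0.59, where 8.08% of all genes tested fell. Cnn2, a calponin gene, had 274, 319 and 371 CPM in KO and 645, 658 and 948 CPM in WT (log2 fold change -1.23 ± 0.18 SE; adjusted p = 0.00501). Vcl, which links actin to adhesions, fell by 0.86 ± 0.17 on the log2 scale, Fhl2 by 0.58 ± 0.11 and the actin nucleator gene Lmod1 by 1.33 ± 0.26 (edgeR adjusted p = 0.0131, 0.0139 and 0.0136). The sum over the 20 genes was 11698, 12168 and 13402 CPM in KO replicates 1, 2 and 3, against 14151, 14480 and 23122 CPM in WT replicates 1, 2 and 3, so WT replicate 3 stood apart in these genes as it did in Srf. Without WT replicate 3 the median was -0.28, with 6 lower and 2 higher. The number lower was 1 without KO replicate 1, 3 without KO replicate 2 and 4 without WT replicate 2, and without replicate 3 of either genotype 13 were lower and 4 higher.

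The kinases that carry the signal and the proteins that brake it were read next. Their counts stand against 8.03% of all genes tested called higher and 8.08% called lower. Of 20 tested genes of the MAP kinase cascades 2 rose and 3 fell: Map2k2 (-0.54 ± 0.11 SE), whose product activates ERK, Map2k4 (-0.36 ± 0.08), which acts on JNK, and the JNK gene Mapk9 (-0.41 ± 0.08) fell, and Map2k6 (0.68 ± 0.15), which acts on p38, and Map2k5 (0.37 ± 0.10, chosen for naming after its value was seen) rose on the log2 scale. All 5 calls were lost without KO replicate 1 or WT replicate 2, and all but that of Map2k2 without KO replicate 2 or WT replicate 1. None of 8 other MAP kinase phosphatase genes passed (0 in edgeR, with 1 at an unadjusted p under 0.05 and 1 called by DESeq2, in both cases Dusp16, which was higher in KO). Dusp6, the phosphatase that ERK signalling induces, had 45.1, 50.9 and 57.3 CPM in KO and 36.8, 38.3 and 79.2 CPM in WT, and Dusp7 had 49.8, 53.3 and 48.8 CPM in KO and 53.0, 56.3 and 58.7 CPM in WT. Both overlapped between genotypes, with 95% intervals on the log2 scale of -0.67 to 0.65 for Dusp6 and -0.35 to 0.06 for Dusp7. The overlap of Dusp6 came from WT replicate 3 alone, and without that library Dusp6 was called higher, as the only call of this list. Without replicate 3 of either genotype Dusp6, Dusp9 and Dusp16 were higher and none was lower. Of 6 feedback adaptors of ERK 1 fell, Spry2, from a family that dampens receptor signals to ERK: it had 50.8, 61.4 and 50.3 CPM in KO and 101, 107 and 72.7 CPM in WT (log2 fold change -0.79 ± 0.16 SE; edgeR adjusted p = 0.0159). Spry2 lost its call without KO replicate 1, WT replicate 1 or WT replicate 2.

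Of 10 tested genes that act beside ATF3 in the stress response 6 rose, with a median log2 fold change of 0.66. For this list and the next, the shares of all genes tested were 8.03% higher and 8.08% lower. Chac1, a glutathione-degrading enzyme gene, had 42.4, 41.3 and 52.2 CPM in KO and 18.3, 19.2 and 27.8 CPM in WT, and Trib3, a pseudokinase gene, had 85.4, 79.6 and 96.3 CPM in KO and 43.6, 50.3 and 35.6 CPM in WT. Asns, the asparagine synthetase gene, averaged 251 ± 10.7 CPM in KO and 151 ± 20.7 CPM in WT (SD, n = 3 each). All 3 were separate between genotypes, at log2 fold changes of 1.06, 1.01 and 0.73 (edgeR adjusted p = 0.00833, 0.00379 and 0.00617), and Ppp1r15a, given above, is on this list too. With 1 library left out 5 to 6 were higher, and 7 without replicate 3 of either genotype. Of 10 tested genes of HSF1 and its targets, the chaperone program that IER5 is known to act on, 3 fell. Hspa1b, an inducible HSP70 gene with a near-identical copy in Hspa1a that can share its reads, had 14.3, 16.0 and 11.2 CPM in KO and 25.6, 25.9 and 36.4 CPM in WT. Hsph1, an HSP110 gene, fell by 1.09 ± 0.20 and the co-chaperone gene Bag3 by 0.54 ± 0.11 on the log2 scale (SE; edgeR adjusted p = 0.0101 and 0.0144). Ier5 itself overlapped between genotypes, as given above, and the median of the list was -0.43. Without KO replicate 2 or KO replicate 3, 5 of the list were lower, without KO replicate 1 or WT replicate 2, 2 were, and without replicate 3 of either genotype 6 were lower and 3 higher.

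**Figure D4:**
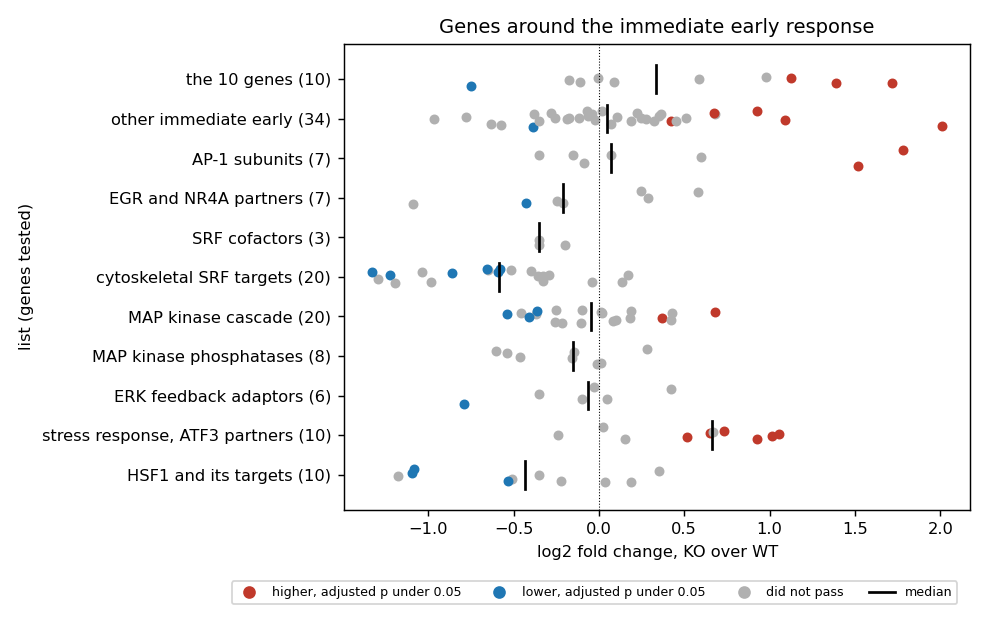
Log2 fold change of KO over WT for every tested gene of 11 lists (points, shifted up or down at random within a row), red where called higher, blue where called lower, with the median of each list as a black line; the number of genes tested is in brackets. Among the 10 genes 3 are red and 1 is blue, cytoskeletal SRF targets have 6 blue points, and stress response partners of ATF3 have 6 red points.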

How the data were processed

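Total RNA libraries (TruSeq, Trizol and column purification per the labels' protocols) were analysed for 3 KO and 3 WT samples. The submitters' processing notes name Cufflinks 2.2.1, TopHat2 2.1.1, deepTools and SAMtools 1.5, and the build mm10. Annotation and strand use are not given in the sources used here. Deposited by the authors were expected counts (estimated fragments per locus) and FPKM, both in Cufflinks layout per the file headers. In the deposited expected counts 88.9% to 89.5% of values up to 1000 were whole multiples of 1 step per library (tolerance 0.05), so each library had been scaled; totals before that were 51152391 to 70625752. Fragments shared between near-identical genes are divided by an estimate. Of 53323 loci, 1317 without a name (at most 3.13e-05% of a library) and 9 whose estimation was skipped were left out.

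The expected counts were rounded and tested in edgeR 4.0.16 (R 4.3.3) with filterByExpr, TMM scaling and a robust quasi-likelihood F test, two-sided, on genotype alone, using Benjamini-Hochberg adjustment over 16787 genes and a threshold of 0.05. CPM use TMM-scaled totals; SE and 95% intervals come from F. Without molecular identifiers PCR copies cannot be counted once, so precision from depth covers counting error only. The procedure was tested on simulated data. Alternatives were DESeq2 1.42.0 and limma 3.58.1 on log2(FPKM + 1) or log2(FPKM + 0.1), other scalings and filters, the replicate number as a block, and replicates left out or summed. Positions come from GENCODE M21. Members, lists and alternatives were chosen with earlier results of these data known; from each list up to 4 tested genes with the smallest adjusted p are named, or the 2 most abundant where none passed, and for likeness up to 3 genes per member. Plots were drawn with matplotlib 3.10.9.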

Additional observations from a re-analysis of the deposited data

How the results depend on the processing

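Of 18 alternatives to the main settings, Ier3 passed in 17, Ier2 in 16, Egr1 in 11 and Dusp1 in 7, all with the direction of the report. The number of the 10 genes higher in KO was 3 under the main settings, 0 with replicates 1 and 2 of each genotype summed, 1 with limma on log2(FPKM + 1) without a filter (Ier3), and 2 to 3 with 1 library left out. Higher among all genes tested were 1348 of 16787 under the main settings, 280 of 17853 with summed replicates and 527 of 27649 with that limma setting. With 1 library left out, 3.51% to 9.37% of all genes tested were higher. The number lower was 1 under the main settings, and 0 with library size only, the replicate block, replicates 1 and 2 summed, and all 3 limma settings, and 0 to 1 with 1 library left out. Lower among all genes tested were 1357 of 16787 under the main settings, 1026 with library size only, 1218 with the block and 198 of 17853 with summed replicates. With limma 974 and 1007 of 13176 were lower with the filter and 655 of 27649 without it. With 1 library left out the share lower was 3.27% to 10.1%. Over all genes 2705 were called, 6993 without replicate 3 of either genotype, 478 with replicates 1 and 2 summed, 1562 and 1615 with limma on log2(FPKM + 1) and log2(FPKM + 0.1), 1182 with limma and no filter, and 1169 to 3282 with 1 library left out.

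Same-numbered samples were not paired by the labels, and their deviations correlated at 0.0516, 0.182 and 0.125, with KO replicate 1 closest to WT replicate 2 (0.167). The replicate block gave 2356 calls, with 3 of the 10 genes higher and 0 lower; Dusp1 then had a log2 fold change of -0.73 (adjusted p = 0.0606).

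Signs turned only in genes that did not pass. With 1 library left out, Egr3 ranged over -0.35 to 0.35, Ier5 over -0.29 to 0.049 and Nr4a1 over -0.32 to 0.17. Egr3 was at -0.35 without KO replicate 3, -0.16 without WT replicate 1 and -0.11 without replicate 3 of either genotype. Ier5 was at 0.049 without KO replicate 3 and 0.15 without replicate 3 of either genotype, and Srf at 0.16 without WT replicate 3 and 0.22 without replicate 3 of either genotype. Nr4a1 was at 0.084 with library size only, which moved the median of all genes to 0.10 and the share of calls that were higher to 65.7% (against 49.8%), and at 0.06, 0.17, 0.0023 and 0.02 without KO replicate 1, KO replicate 3, WT replicate 2 and WT replicate 3, 0.21 without replicate 3 of either genotype, 0.091 with limma on log2(FPKM + 1) with or without the filter and 0.094 on log2(FPKM + 0.1). With limma, calls split 37.6% higher at a mean FPKM of at least 1 and 44.6% without that filter; summed replicates gave 58.6%. The cause was not tested.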
